A study of Mus musculus with 52 samples.

Results

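The clustered protocadherins are neuronal cell-surface proteins of the cadherin superfamily whose genes lie in an alpha, a beta and a gamma array, side by side on mouse chromosome 18. They were taken here as every gene whose symbol starts with Pcdha, Pcdhb or Pcdhg, which gave 58 of the 15692 genes in the count table: 14 alpha, 22 beta and 22 gamma isoforms. Of these, 57 passed the filter on low counts. Pcdhb1, the first beta gene, did not. The set was proposed with the APP/E4 against APP/E3 result of these same libraries in view, so its members were in effect chosen by measured values of that contrast. The genotype differences of the members are therefore given as a description, with standard errors. Where a member is said to pass the threshold for genotype, this places it within the values that chose the set and supports nothing further.

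RNA from frontal cortex was sequenced in 52 libraries. All the mice carried the APP/PS1ΔE9 transgenes, which express mutated human amyloid precursor protein and presenilin, and all were homozygous for a targeted replacement of mouse Apoe by a human allele, so the controls carry the amyloid transgenes and a human APOE allele too. APP/E3 mice carried APOE3 and APP/E4 mice APOE4. From a mean age of 3.5 months, mice of either sex received for 3 months a normal diet (ND, Prolab Isopro RMH 3000) or a Western-type high-fat diet (HFD) with 40% of its calories from fat. The labels place behavioural testing at a mean age of 14.7 months. The groups held 6 APP/E3 ND males, 7 APP/E3 ND females, 6 APP/E3 HFD males, 8 APP/E3 HFD females, 6 APP/E4 ND males, 7 APP/E4 ND females, 5 APP/E4 HFD males and 7 APP/E4 HFD females. In bulk cortex, fewer cells of a type and less RNA per cell cannot be told apart.

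As background, each alpha and gamma isoform is made from a variable exon with a promoter of its own, spliced to constant exons shared by the whole array, while each beta gene is a variable exon alone. A neuron transcribes a small, largely random choice of isoforms, which depends on the insulator protein CTCF, on cohesin and on DNA methylation of the promoters. The proteins bind identical isoforms on other membranes, and the resulting barcode lets the branches of a neuron avoid each other. The C-type isoforms at the ends of the alpha and gamma arrays are the exception to that random choice, being expressed in most neurons or in broad classes of them.

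Depth ran from 5343347 to 13128299 counts per library, apart from 1 library of 39388340, and 3 counts were worth 0.0754 to 0.579 CPM (counts scaled to the library total, adjusted by the trimmed mean of M values). Markers fixed for other tissues varied widely among the libraries of this dissection. The summed level of 8 striatal neuron markers ran from 194 to 2621 CPM in APP/E3 and from 179 to 2205 CPM in APP/E4. The 8 excitatory neuron markers summed to a range from 4985 to 7621 CPM in APP/E3 and from 3676 to 7582 CPM in APP/E4. A group of 11 female libraries held almost no reads of the gene Csl (0.0936 to 1.15 CPM, against 10.7 to 18.2 CPM in the other 41) and differed from the rest at 22.8% of all genes tested. These 11 were 5 of 8 APP/E3 HFD females and 2 of 7 in each other female group. Results are given with and without them where they change. The titles of 14 libraries, all male, lack a letter for sex.

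Per kilobase of variable exon, the C-type isoforms were the most abundant members. Pcdhgc5 stood at 50.3 CPM per kilobase, Pcdhgc3 at 29.2 and Pcdhac2 at 13.4, followed by Pcdhga11 at 8.83 and Pcdhga6 at 8.19. The median of the 57 members with an annotated variable exon was 2.24 CPM per kilobase. The lowest were Pcdhb1 at 0.207, Pcdha8 at 0.358 and Pcdhgb8 at 0.619. Not every C-type isoform was abundant, since Pcdhgc4 stood at 5.47 and Pcdhac1 at 1.53. Pcdhgb8 and Pcdhgc5 share the constant gamma exons, yet they held 795 and 67585 counts in all, so reads of the shared exons were not simply added to every gamma isoform. The sources used here do not say how the counting split those reads, or reads common to near-identical variable exons, and the level of any isoform carries that uncertainty.

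Summed over isoforms, the clusters differed little between groups. The gamma sum ran from a group mean of 433 ± 70.04 CPM (SD, n = 6) in APP/E3 ND males to 488 ± 13.9 CPM (SD, n = 6) in APP/E3 HFD males. The beta sum ran from 168 ± 18.3 CPM (SD, n = 6) in APP/E3 ND males to 192 ± 12.8 CPM (SD, n = 7) in APP/E4 ND females. The alpha sum ran from 87.1 ± 22.2 CPM (SD, n = 6) in APP/E3 ND males to 108 ± 7.11 CPM (SD, n = 7) in APP/E4 ND females. All these ranges are of the size of the spread inside a group, and the libraries of every group overlapped those of the others.

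**Figure D1:**
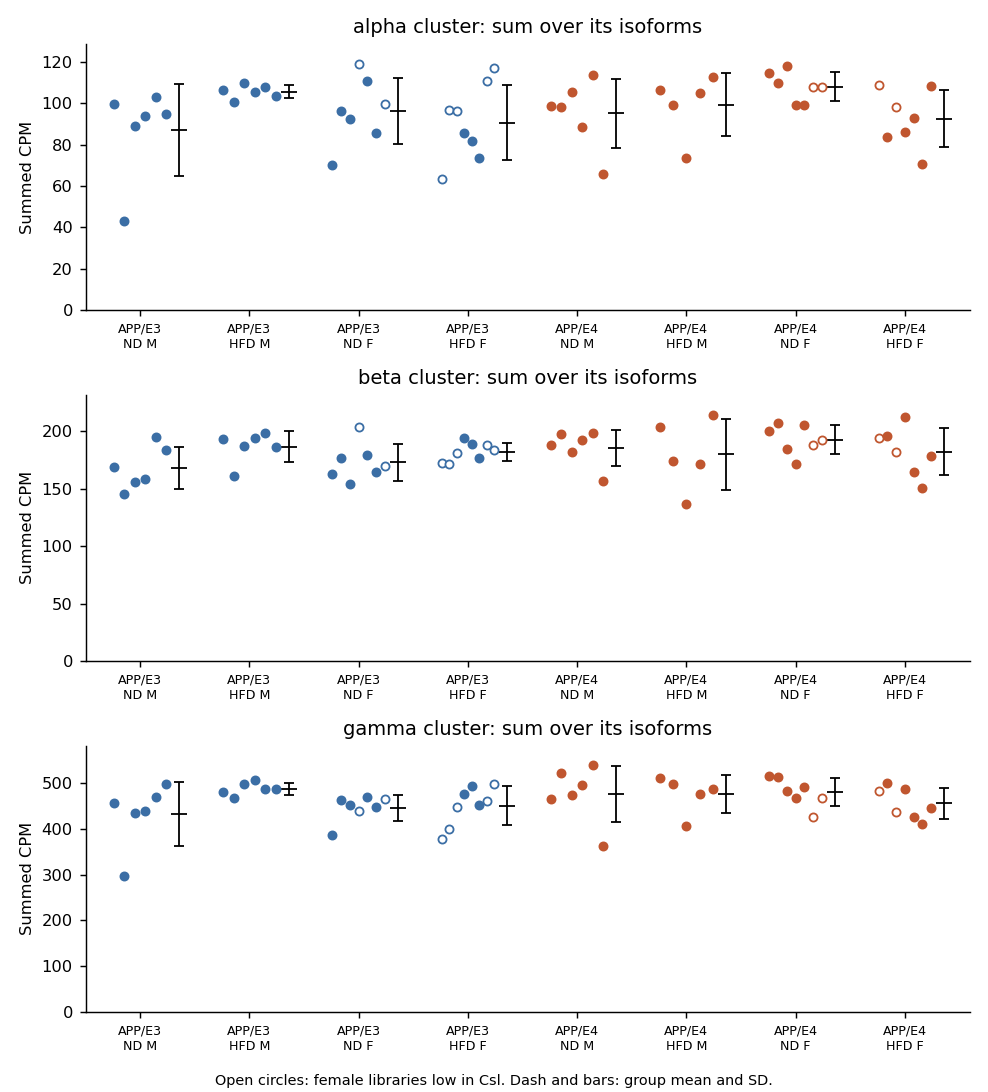
Summed CPM of the alpha, beta and gamma protocadherin isoforms in each library (points), with group mean and SD (dash and bars), for the 8 groups; open circles are female libraries low in Csl. The groups overlap in each panel, and replicate 2 of the APP/E3 ND males lies lowest in the alpha panel at 42.9 CPM and in the gamma panel at 298 CPM.

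The isoforms of a library tended to be low together in a few animals. In replicate 2 of the APP/E3 ND males, 38 of the 58 members had the lowest value of their group, and its alpha sum was 42.9 CPM where the other 5 libraries lay between 89.1 and 103 CPM. In replicate 6 of the APP/E4 ND males 37 of 58 members were the lowest of the group, and in replicate 3 of the APP/E4 HFD males 43 of 58 were. Other lists moved in these libraries too. The 12 nonclustered protocadherins summed to 766 CPM in the APP/E3 library, 767 CPM in the APP/E4 ND library and 959 CPM in the APP/E4 HFD library, each the lowest of its group. The 8 astrocyte markers summed to 3838 CPM and 3993 CPM in the first 2 of these libraries, again the lowest of their groups, but to 6800 CPM in the third, the highest of its group. The part of cell composition in these low libraries was not tested. Where leaving out 1 of them moved a median over the isoforms furthest, that median is given.

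Between the genotypes, single isoforms differed in both directions. Of the 57 members tested, 39 were higher in APP/E4 and 18 lower, and the median log2 fold change was 0.11, against 0.00 over all genes. Past an adjusted p of 0.05 in edgeR's quasi-likelihood test over all genes were 11 of the 57: 10 higher and 1 lower. Over all genes tested, 6.79% passed, 3.39% higher and 3.4% lower; since the members were selected on this contrast, nothing is read from the comparison of these shares. Leaving out replicate 2 of the APP/E3 ND males brought the median of the members to 0.06 and left 11 past the threshold. Leaving out replicate 6 of the APP/E4 ND males brought that median to 0.13.

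No alpha isoform passed, while Pcdha10 and Pcdha11 did both with a term for the libraries low in Csl and without those libraries. The alpha isoforms from Pcdha7 to Pcdhac1 were 7 consecutive genes with a higher mean in APP/E4 (median log2 of 0.27), and the first 6 scattered about 0. Pcdha8 had the largest positive log2 value of any member, 0.56 ± 0.22 (SE), on 425 counts in all. It ran from 0.0979 to 2.27 CPM with a median of 0.517 in the 27 APP/E3 libraries and from 0.282 to 1.74 CPM with a median of 0.936 in the 25 APP/E4 libraries. These ranges overlap almost wholly, and 2 libraries held under 3 counts of it. Pcdha10 followed with 0.33 ± 0.11 (SE), and Pcdha4 lay nearest 0 with 0.00 ± 0.09. At the ends of the array, Pcdha1 had -0.01 ± 0.14 and Pcdhac2 -0.01 ± 0.07.

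In the beta cluster 3 isoforms passed, all higher in APP/E4. Pcdhb2 ran from 1.17 to 5.31 CPM (median 3.41) in APP/E3 and from 2.23 to 7.43 CPM (median 4.74) in APP/E4, a log2 fold change of 0.50 ± 0.11 (SE). Of the APP/E4 libraries, 10 lay above every APP/E3 library and 21 of 25 above the APP/E3 median. Pcdhb8 ran from 1.97 to 5.07 CPM (median 3.22) in APP/E3 and from 2.01 to 8.18 CPM (median 4.32) in APP/E4, a log2 fold change of 0.43 ± 0.11. Its APP/E4 libraries were above the APP/E3 median in 22 of 25 cases. Pcdhb11 ran from 3.66 to 7.20 CPM (median 5.01) in APP/E3 and from 3.83 to 8.56 CPM (median 6.90) in APP/E4, a log2 fold change of 0.36 ± 0.08. The last 3 beta genes, Pcdhb20 to Pcdhb22, were slightly lower in APP/E4, with -0.07 ± 0.07 for Pcdhb22, and Pcdhb10 lay nearest 0 with -0.03 ± 0.09. The 3 isoforms past the threshold were not neighbours: Pcdhb8 and Pcdhb11 each lay between isoforms with a lower mean in APP/E4.

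The gamma cluster held 8 of the 11. Its A and B types, whose variable exons alternate along the array, were higher in APP/E4 at 15 of 19 isoforms, and Pcdhga6 to Pcdhgb7 formed a run of 9 higher genes with a median log2 of 0.27. Pcdhgb7 ran from 6.56 to 13.4 CPM (median 9.32) in APP/E3 and from 8.08 to 17.2 CPM (median 12.6) in APP/E4, a log2 fold change of 0.42 ± 0.08 (SE). Pcdhga9 ran from 8.18 to 16.8 CPM (median 11.2) in APP/E3 and from 7.66 to 22.0 CPM (median 14.6) in APP/E4, or 0.39 ± 0.07. Most APP/E4 libraries were above the APP/E3 median in both, 22 of 25 for Pcdhgb7 and 23 of 25 for Pcdhga9, though the ranges overlap. Pcdhga10 had 0.37 ± 0.08, Pcdhga7 0.29 ± 0.08, Pcdhga12 0.29 ± 0.05, Pcdhgb1 0.26 ± 0.08 and Pcdhga4 0.20 ± 0.06. Pcdhga12, the last A-type gene, ran from 13.7 to 26.2 CPM in APP/E3 and from 15.9 to 28.6 CPM in APP/E4, and 23 of 25 APP/E4 libraries were above the APP/E3 median. Pcdhgb1 did not pass when any of 7 libraries was left out (APP/E3 ND male 2, ND female 1 and HFD male 6; APP/E4 ND males 1 and 5, ND female 5 and HFD male 2), and Pcdhga4 did not without APP/E4 HFD male 5.

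The C-type isoforms are given together, though no test compared them with the other types. Pcdhgc5 lay from 91.4 to 151 CPM (median 134) in APP/E3 and from 99.98 to 152 CPM (median 133) in APP/E4, a log2 fold change of 0.00 ± 0.04 (SE), the smallest of the gamma cluster. Pcdhgc3 lay from 40.0 to 102 CPM (median 79.7) in APP/E3 and from 52.3 to 91.7 CPM (median 70.1) in APP/E4, or -0.14 ± 0.07. Its APP/E4 libraries exceeded the APP/E3 median in 5 of 25 cases. Pcdhgc4 had -0.12 ± 0.07. Pcdhac1, the end of the higher alpha run, had 0.27 ± 0.13 and a higher mean in APP/E4 in each of the 4 combinations of sex and diet. None of the 5 C-type isoforms passed the threshold, and Pcdhac1 did with terms for both Csl and the letter in the title. Pcdhga1, the first gamma gene, had -0.01 ± 0.09.

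Of the 5 nearest tested genes on either side of the arrays, 9 of 10 had a lower mean in APP/E4, with a median log2 of -0.11. Of the 20 nearest on either side, which include these 10, 21 of 40 had a higher mean and 19 a lower one, with a median of 0.01. The genes further out thus had a higher mean more often than a lower one. On the alpha side were Zmat2 with -0.15 ± 0.04 (SE) and, past Hars2 with -0.03 ± 0.04, the histidyl-tRNA synthetase gene Hars with -0.15 ± 0.03, both past the threshold. Dnd1 with -0.13 ± 0.17 and Wdr55 with -0.07 ± 0.05 were not. On the gamma side Diaph1, a formin that nucleates actin, had -0.11 ± 0.05, the histone deacetylase gene Hdac3 -0.08 ± 0.03, Rell2 -0.10 ± 0.06, Fchsd1 -0.23 ± 0.08 and Arap3 0.04 ± 0.06, and none of these passed. Between the beta and gamma arrays, the transcription factor gene Taf7 had 0.24 ± 0.07 and passed. Further out on the gamma side, 1700086O06Rik with -0.48 ± 0.13 and Fgf1 with 0.39 ± 0.06 also passed, in opposite directions.

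**Figure D2:**
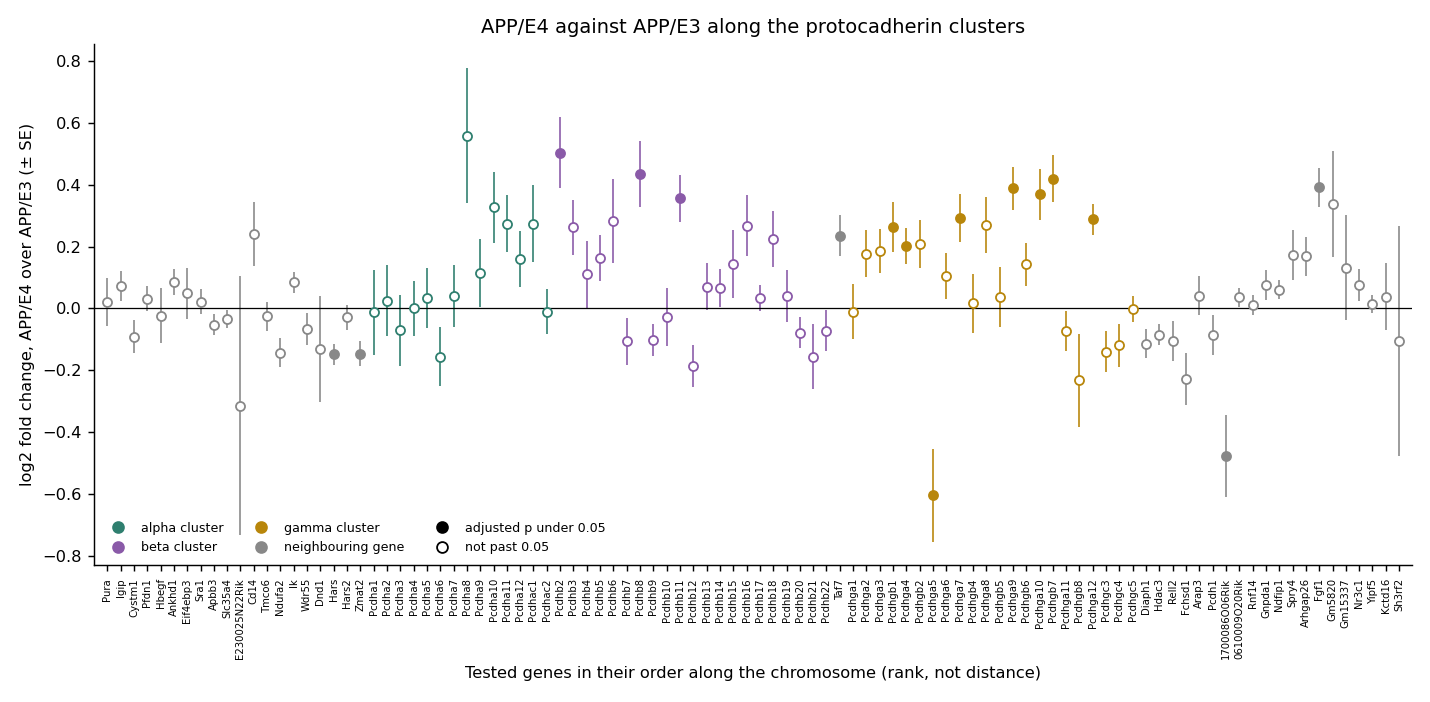
Log2 fold change of APP/E4 over APP/E3 with its standard error (vertical axis) for 20 tested genes before the arrays, the 57 protocadherin isoforms, Taf7 and 20 tested genes after them, in chromosome order (horizontal axis, rank and not distance); filled points had an adjusted p under 0.05. Higher and lower isoforms alternate in runs, and Pcdhga5 lies lowest at -0.60 between higher neighbours.

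Pcdhga5 was the only member lower in APP/E4 past the threshold. It ran from 8.58 to 18.2 CPM with a median of 14.4 in the 27 APP/E3 libraries and from 2.12 to 17.6 CPM with a median of 9.18 in the 25 APP/E4 libraries, a log2 fold change of -0.60 ± 0.15 (SE). Below every APP/E3 library lay 9 APP/E4 libraries. The APP/E4 libraries were spread unevenly: 5 lay at or below 3.83 CPM, the next at 7.04 CPM, 21 at or below 11.5 CPM, and the last 4 from 14.5 CPM upward. The 5 lowest were 1 ND male at 2.12 CPM, 1 ND female at 2.61 CPM and 3 HFD females at 2.18, 2.43 and 3.83 CPM. They rest on 24, 21, 18, 19 and 30 counts. No library low in Csl was among them.

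The spread of Pcdhga5 within groups was the widest of the members, a residual SD of 0.58 on the log2 scale, at the 94.1st percentile of all genes tested; the median over the members was 0.30. In APP/E3, by contrast, its group means lay close together, from 12.8 ± 2.42 CPM (SD, n = 7) in ND females to 14.7 ± 0.642 CPM (SD, n = 6) in HFD males. Its neighbours in the array did not fall with it, Pcdhgb2 having a log2 fold change of 0.21 ± 0.08 (SE) and Pcdhga6 0.11 ± 0.08. In the APP/E4 HFD female with 2.18 CPM of Pcdhga5, Pcdhgb8 was also the lowest of the 25 libraries, at 0.121 CPM, whereas in the ND male with 2.12 CPM it ranked 10 of 25 at 1.33 CPM. In the other HFD females of the 5, Pcdhgb8 ranked 4 and 7 from the lowest, and in the ND female 2; Pcdhgb8 was looked at after its values had been seen. Without the libraries low in Csl the log2 fold change of Pcdhga5 was -0.74, and with single libraries left out it lay between -0.69 and -0.55.

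**Figure D3:**
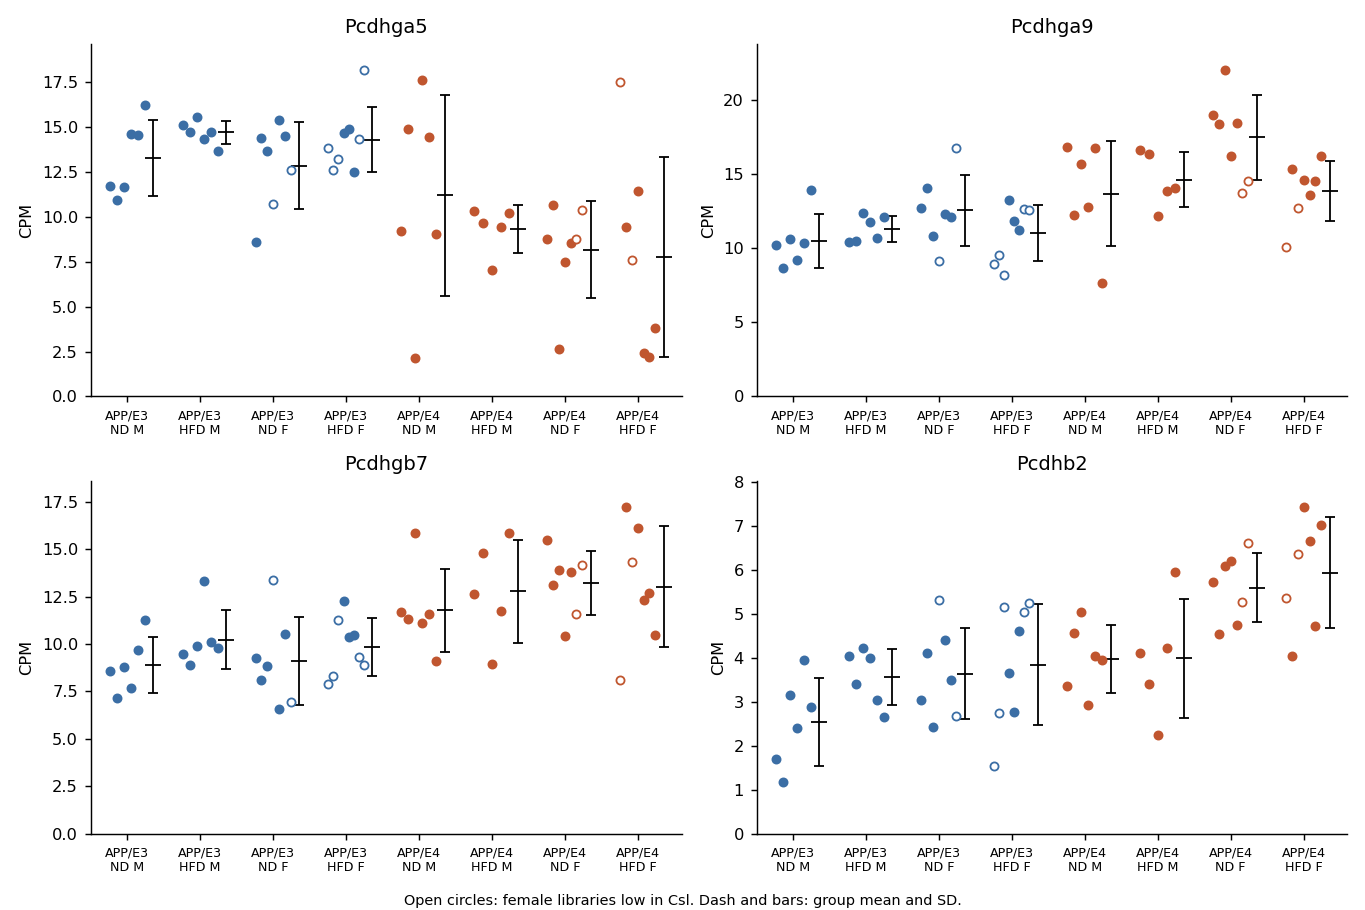
CPM of Pcdhga5, Pcdhga9, Pcdhgb7 and Pcdhb2 in each library (points) over the 8 groups, with group mean and SD (dash and bars); open circles are female libraries low in Csl. The APP/E4 points of Pcdhga5 reach down to 2.12 CPM, below the lowest APP/E3 point at 8.58 CPM, whereas for the other isoforms the APP/E4 points are shifted upward with overlap.

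The sign of the genotype difference was the same in each of the 4 combinations of sex and diet for 22 of the 57 isoforms: 18 higher and 4 lower in APP/E4. The 4 lower were Pcdha6, Pcdhb7, Pcdhga5 and Pcdhgc3. The 18 higher were 9 gamma, 6 beta and 3 alpha isoforms, among them Pcdhb2, Pcdhb8, Pcdhb11 and each of the gamma isoforms past the threshold on the higher side except Pcdhga4. The group means of Pcdhgb7 were 8.87 ± 1.48 CPM (SD, n = 6) in APP/E3 ND males against 11.8 ± 2.20 CPM (SD, n = 6) in APP/E4 ND males, and 9.85 ± 1.51 CPM (SD, n = 8) in APP/E3 HFD females against 13.0 ± 3.17 CPM (SD, n = 7) in APP/E4 HFD females.

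With a term for the libraries low in Csl, 15 members passed for genotype where 8.79% of all genes did, and without those libraries 14 did, where 6.98% of all genes did. With terms for both Csl and the letter in the title, 20 members passed (11.1% of all genes). Without the libraries low in Csl, 9 of the 11 were among the 14, and Pcdhga7 and Pcdhga4 were not. The read-class and title terms kept all 11. Of the 20, 19 were higher in APP/E4.

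Female and male mice differed at 4 isoforms, a contrast the choice of members did not use. Pcdha8, Pcdhb2 and Pcdhb3 were higher in females and Pcdha6 in males; 4.42% of all genes tested passed, and 4 of 57 is 7.02% of the members. Pcdha8 ran from 0.292 to 2.27 CPM (median 1.21) in the 29 females and from 0.0979 to 1.74 CPM (median 0.515) in the 23 males, with a log2 fold change of 1.02 ± 0.22 (SE; adjusted p = 0.0023, edgeR quasi-likelihood). Its mean was higher in females in each of the 4 pairs of groups, from 0.334 ± 0.275 CPM (SD, n = 6) in APP/E3 ND males to 1.37 ± 0.594 CPM (SD, n = 7) in APP/E3 ND females, and from 0.799 ± 0.428 CPM (SD, n = 5) in APP/E4 HFD males to 1.20 ± 0.333 CPM (SD, n = 7) in APP/E4 HFD females. The median worth of 3 counts was 0.325 CPM, so male values of Pcdha8 sit near what these depths can resolve.

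Pcdhb2 had a log2 female to male fold change of 0.42 ± 0.11 (SE; adjusted p = 0.0246, edgeR quasi-likelihood), with medians of 4.74 CPM in females and 3.41 CPM in males. It was therefore a member higher in APP/E4 and in females, and its group means ran from 2.54 ± 1.01 CPM (SD, n = 6) in APP/E3 ND males to 5.94 ± 1.26 CPM (SD, n = 7) in APP/E4 HFD females. Pcdhb3, its neighbour, had 0.34 ± 0.09 (SE; adjusted p = 0.0181), with medians of 8.94 CPM in females and 7.13 CPM in males. Pcdha6 ran from 2.06 to 5.25 CPM (median 3.81) in females and from 2.25 to 7.36 CPM (median 4.90) in males, a log2 fold change of -0.33 ± 0.10 (SE; adjusted p = 0.0346). Ranges overlapped between the sexes for each of the 4. No gamma isoform passed for sex.

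Only Pcdha8 of these 4 calls was kept once the libraries low in Csl were taken into account, and those libraries are all female. With a term for them, Pcdha8 (adjusted p = 0.00979, edgeR) and Pcdhb8 (adjusted p = 0.0489) passed, where 4.31% of all genes did. Without those libraries Pcdha8 (adjusted p = 0.0108), Pcdhb8 (adjusted p = 0.0391) and Pcdhb11 (adjusted p = 0.0459) passed, where 5.18% of all genes did. With the title term added, Pcdha8 and Pcdhb11 passed (adjusted p = 0.0266 for each) while the share over all genes dropped to 0.211%. Under these 3 fits the adjusted p of Pcdhb2 was 0.0798, 0.0571 and 0.215, that of Pcdhb3 0.183, 0.183 and 0.472, and that of Pcdha6 0.195, 0.196 and 0.738. The log2 fold change of Pcdhb2 stayed near its size under them (0.38, 0.38 and 0.53), while that of Pcdhb3 was 0.23, 0.21 and 0.22 and that of Pcdha6 -0.24, -0.24 and -0.12. Pcdha6 also missed the threshold when any of 6 male libraries was left out (APP/E3 ND replicates 1 and 5, APP/E3 HFD replicate 4, APP/E4 ND replicate 5, APP/E4 HFD replicates 1 and 4), with adjusted p from 0.0501 to 0.0697. A fit that kept only genes of at least 1 CPM in 26 of the 52 libraries did not test Pcdha8.

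**Figure D4:**
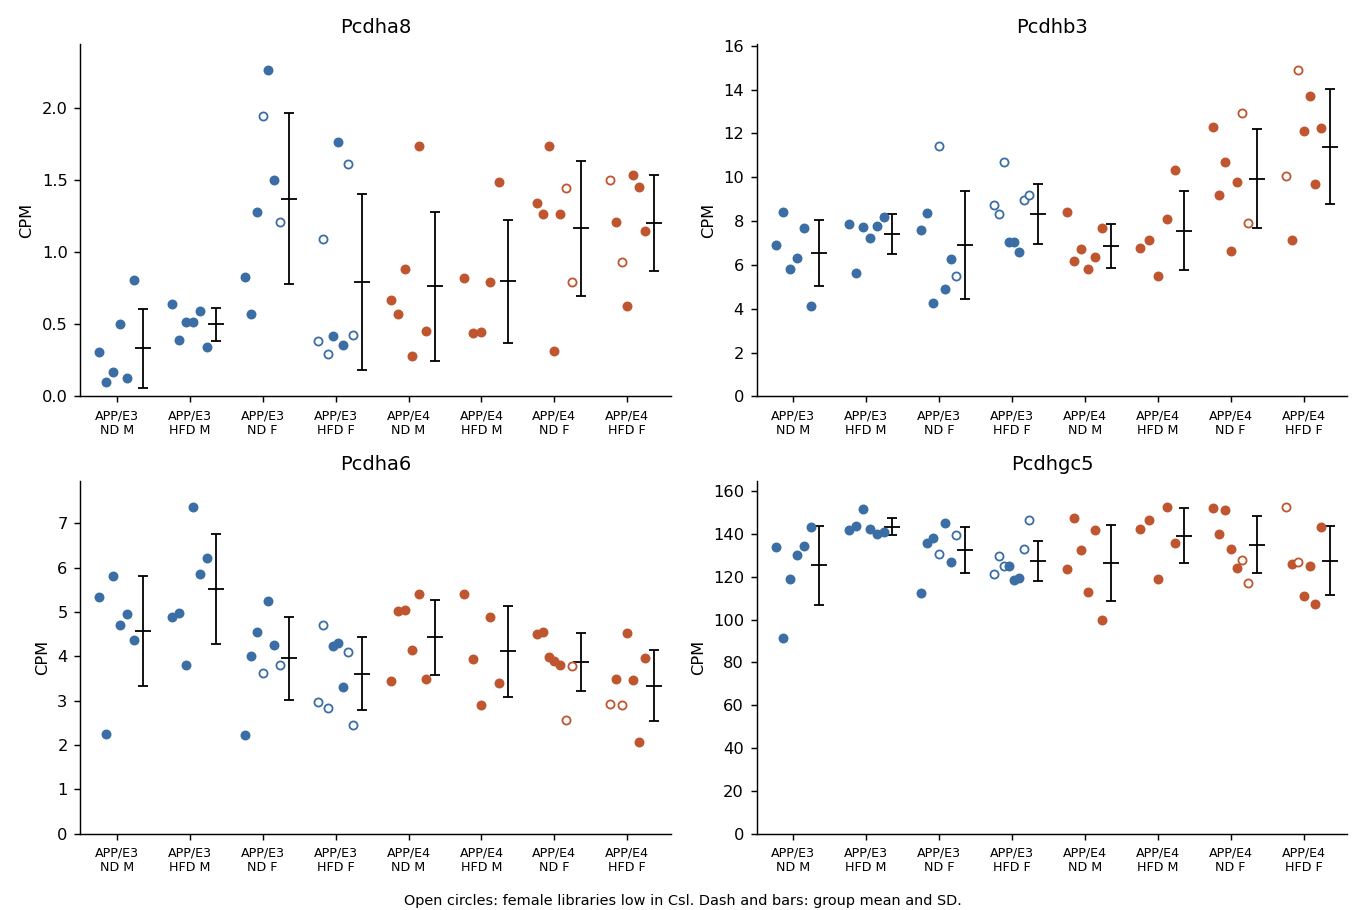
CPM of Pcdha8, Pcdhb3, Pcdha6 and Pcdhgc5 in each library (points) over the 8 groups, with group mean and SD (dash and bars); open circles are female libraries low in Csl. Pcdha8 has a higher mean in females than in males for each genotype and diet. In APP/E3 HFD most female points lie within or below the male range. Pcdhgc5, shown as an isoform that did not pass for sex, lies between 91.4 and 152 CPM in all groups.

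The libraries low in Csl themselves differed from the others at 5 isoforms in the fit that held their term, 8.77% of the members beside the 22.8% of all genes. Pcdhb5 was higher by 0.43 on the log2 scale (adjusted p = 0.000162, edgeR), Pcdhac1 by 0.51 (adjusted p = 0.0184), Pcdha10 by 0.47 (adjusted p = 0.0158) and Pcdha11 by 0.35 (adjusted p = 0.0278), and Pcdhb6 was at -0.56 (adjusted p = 0.0171). Pcdhb5 ran from 6.81 to 12.03 CPM in the 11 low-Csl females, from 5.55 to 8.53 CPM in the other 18 females and from 3.82 to 9.07 CPM in males.

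No isoform passed for diet. The share over all genes tested was 0%, and 1 member, Pcdhb3, had an unadjusted p under 0.05 (log2 fold change 0.19 ± 0.09 SE; adjusted p = 0.507, edgeR). DESeq2 and limma-voom also passed no member, where 2 and 0 of 15195 genes passed. Log2 fold changes of HFD over ND for the 57 isoforms lay between -0.13 and 0.19, with a median of 0.02. That median was -0.01 without replicate 2 of the APP/E3 ND males and 0.03 without replicate 3 of the APP/E4 HFD males. For Pcdhgc5 the value was 0.05 ± 0.04 (SE) with a 95% interval from -0.03 to 0.13.

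Within single groups the diet contrast passed no member either. In APP/E3 females 0.0263% of all genes passed, and in APP/E3 males, APP/E4 females and APP/E4 males 0% did. In APP/E3 males 54 of the 57 isoforms had a higher mean on HFD, with a median log2 of 0.20 against -0.01 over all genes, and 7 members had an unadjusted p under 0.05, a share of 12.3% beside 13.6% of all genes. The smallest p belonged to Pcdhga4, with a log2 fold change of 0.33 ± 0.12 (SE; adjusted p = 0.285, edgeR). Leaving out replicate 2 of the APP/E3 ND males, the library low across most isoforms, brought that median to 0.10. In APP/E4 females 45 of 57 had a lower mean on HFD, with a median of -0.13, and Pcdhga9 had the smallest p (log2 fold change -0.33 ± 0.13 SE; adjusted p = 0.599). In the remaining groups the sign of the median changed with single libraries or terms. In APP/E3 females it was 0.04, but 0.00 without ND replicate 3, 0.07 without HFD replicate 1, 0.10 without the libraries low in Csl and -0.01 with a term for them. In APP/E4 males it was -0.03, but -0.11 without ND replicate 6 and 0.05 without HFD replicate 3. In these groups the smallest p belonged to Pcdha8 with -0.79 ± 0.37 (SE; adjusted p = 0.9999) and to Pcdhga12 with 0.24 ± 0.11 (SE; adjusted p = 0.994).

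The log2 difference of APP/E4 over APP/E3, taken with its sign, was higher on ND than on HFD for 50 of the 57 isoforms: 21 of 22 gamma, 19 of 21 beta and 10 of 14 alpha. Taken without its sign, it was larger on ND for 32 of the 57. Median log2 differences of APP/E4 over APP/E3 were 0.19 on ND and 0.01 on HFD, and the median of the interaction (HFD difference minus ND difference) was -0.17 against 0.01 over all genes, of which 47.6% were below 0. No isoform passed for this interaction, nor did any gene (0% of all genes). At an unadjusted p under 0.05 there were 9 members, all with an interaction below 0, or 15.8% beside 9.97% of all genes. Leaving out single libraries moved the median of the interaction between -0.20 and -0.11 and the count below 0 between 45 and 51. The median of -0.11 came without replicate 3 of the APP/E4 HFD males. The isoforms of a library move together, so the 57 are not independent measurements of the interaction.

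Pcdhga4 had the smallest p of this interaction. Its log2 difference of APP/E4 over APP/E3 was 0.38 ± 0.08 (SE) on ND and 0.02 ± 0.08 on HFD, an interaction of -0.36 ± 0.12 (SE; adjusted p = 0.451, edgeR). Pcdhga1 went from 0.25 ± 0.12 on ND to -0.27 ± 0.13 on HFD, with an interaction of -0.52 ± 0.18 (SE; adjusted p = 0.466). Pcdhga12, by contrast, had 0.27 on ND and 0.30 on HFD, and Pcdhb11 0.36 on ND and 0.35 on HFD. Pcdhga5 was lower in APP/E4 on both, by -0.45 on ND and -0.75 on HFD. On HFD, APP/E4 female replicates 5, 6 and 7, whose title codes lie close together, had 2.43, 2.18 and 3.83 CPM. The other APP/E4 HFD libraries had 7.04 to 17.5 CPM. On ND, an APP/E4 male had 2.12 and a female 2.61 CPM, and the others 7.47 to 17.6 CPM. The part of these low libraries in the larger HFD value was not tested.

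**Figure D5:**
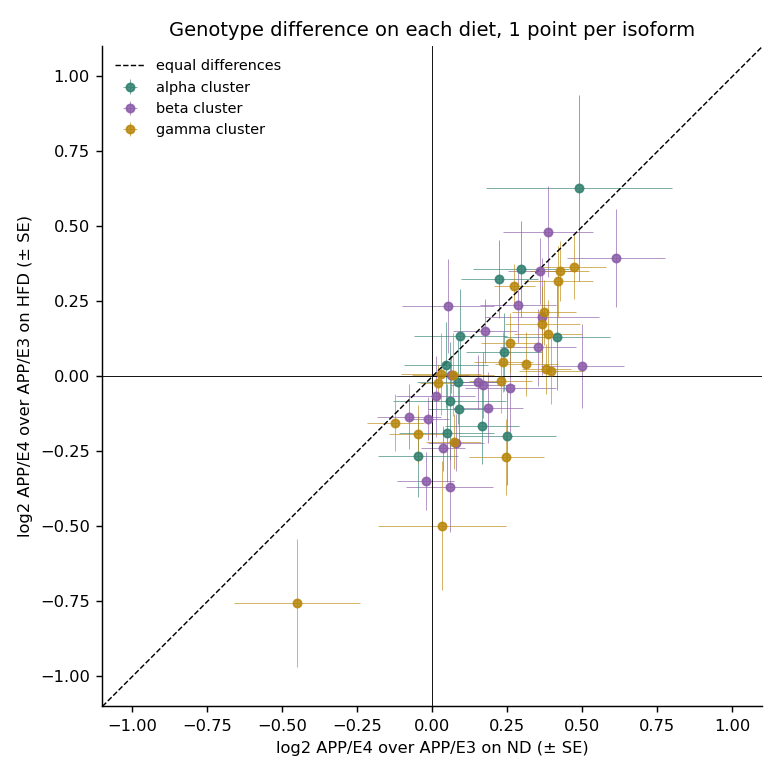
Log2 fold change of APP/E4 over APP/E3 with its standard error on ND (horizontal axis) and on HFD (vertical axis), 1 point per isoform, coloured by cluster; the dashed line marks equal differences. Of the 57 points, 50 lie below the line, and Pcdhga5 is the point farthest down at -0.75 on HFD.

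Genotype with sex passed no member (0.00658% of all genes), with Pcdha7 of smallest p (interaction -0.54 ± 0.20 SE; adjusted p = 0.948, edgeR). Diet with sex passed none either (0% of all genes), and 46 of 57 interactions were below 0 with a median of -0.15. Without replicate 2 of the APP/E3 ND males that median was -0.09, and without the libraries low in Csl -0.08. Without replicate 3 of the APP/E4 HFD males it was -0.18. The smallest p of diet with sex was that of Pcdhgc5, with -0.24 ± 0.08 (SE; adjusted p = 0.604). This isoform had group means of 125 ± 18.4 CPM (SD, n = 6) and 143 ± 4.11 CPM (SD, n = 6) in APP/E3 males on ND and HFD, and 133 ± 10.6 CPM (SD, n = 7) and 127 ± 9.21 CPM (SD, n = 8) in APP/E3 females.

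Genes that act with the clustered protocadherins were read from lists of fixed membership. Over all genes tested, 6.79% passed for genotype and 4.42% for sex. The lists are short, so nothing is read from the number of their genes that passed. Of 23 tested regulators of the arrays' chromatin, Ctcf, the insulator protein that binds isoform promoters and enhancers, passed for genotype with a log2 fold change of 0.12 ± 0.03 (SE), and 19 of the 23 had a higher mean in APP/E4 with a list median of 0.06. None of the 23 passed for diet, sex or genotype with diet. Directions were as one-sided in those contrasts. Higher means were found on HFD for 22 of the 23 (median 0.0566) and in females for 3 (median -0.0528). The interaction of genotype with diet was above 0 for 2 (median -0.11). Of 25 binding and signalling partners, the Src-family kinase gene Fyn (0.74 ± 0.05) and the small GTPase gene Rac1 (0.07 ± 0.02) were higher in APP/E4 past the threshold and Brk1, a subunit of the WAVE actin-regulatory complex, was lower (-0.14 ± 0.04), with a list median of -0.01. For sex, Abi2 and Wasf1, further WAVE subunits, and the kinase gene Ptk2b were lower in females, with log2 fold changes of -0.15 ± 0.03 (adjusted p = 0.00277), -0.12 ± 0.03 (adjusted p = 0.0361) and -0.13 ± 0.04 (adjusted p = 0.0236, edgeR for each); with a term for the libraries low in Csl, or without those libraries, Abi2 passed and Wasf1 and Ptk2b did not. Protocadherins are cut at the membrane by ADAM10 and gamma-secretase, and of 8 tested genes for that shedding Ncstn, a gamma-secretase subunit, passed for genotype with 0.08 ± 0.02. Of 11 tested nonclustered protocadherins, Pcdh8 was lower in APP/E4 past the threshold (-0.40 ± 0.11), and none passed for sex or diet. In this list 8 of 11 had a higher mean in APP/E4, with a median of 0.03.

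Markers of cell types were set beside the genotype contrast. The 8 markers of excitatory and the 8 of inhibitory neurons, cells that express most clustered protocadherins, had median log2 differences of -0.09 and -0.02 with none past the threshold. The 8 oligodendrocyte markers had higher means in APP/E4 throughout, with a median of 0.28 and 2 past the threshold (Ermn and Mag). Without the libraries low in Csl, Mag passed and Ermn did not, with a median of 0.215. Their sum ran from 1196 to 5354 CPM in APP/E3 and from 2428 to 7317 CPM in APP/E4. Of the 8 astrocyte markers Gfap passed, with a higher level in APP/E4. As a list they were mixed, with 4 of 8 higher in APP/E4 and a median of -0.01. No striatal, choroid plexus, olfactory, endothelial or meningeal and mural marker passed for genotype. For the interaction of genotype with diet, all 8 striatal markers were below 0 and the excitatory list had a median of 0.27, with none past the threshold. Other lists were as one-sided. All 8 astrocyte, 7 endothelial and 8 meningeal and mural markers were above 0, and all 8 oligodendrocyte markers were below 0. The inhibitory list was mixed, with 3 of 8 above 0. The part of these markers in the isoforms' differences was not tested.

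Pcdhb1 was too low to test, with 265 counts over 52 libraries and under 3 counts in 21 of them. One APP/E3 ND male, replicate 3, held 8.31 CPM of it where the other 5 of its group lay between 0 and 1.13 CPM. In the same library the 8 markers of olfactory sensory tissue summed to 1002 CPM, the highest of all APP/E3 libraries. Most of this sum is usually Gnal, with a median of 385 CPM over all libraries, against 1.72 CPM for Omp and 0.376 CPM for Cnga2. Values of single markers in that library are not given here. The part of olfactory tissue in the Pcdhb1 value was not tested.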

How the data were processed

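Counts per gene for 52 libraries were used as the authors deposited them; per the submitters' processing notes these involve Subread, featureCounts, limma and edgeR 3.14.0 on build mm9. For the annotation, strand setting and treatment of shared reads: not given in the sources used here. Genes were kept with edgeR's filterByExpr (15195 of 15692), scaled by the trimmed mean of M values and fitted with a robust quasi-likelihood model of the 8 groups (edgeR 4.0.16, R 4.3.3), with Benjamini-Hochberg adjustment over all genes and a threshold of 0.05. Standard errors come from the same fit. On data simulated for the APP/E4 against APP/E3 contrast over 15089 genes, 93% of 100 genes changed by 0.5 on the log2 scale and 100% of 100 changed by 1 were recovered. The changed genes had a mean of at least 1 CPM, and the simulated spread followed the trend over genes. Smaller differences, isoforms under 1 CPM and isoforms of wide spread such as Pcdhga5 were not covered. CPM are scaled counts; variable exon lengths come from GENCODE M21. No 2 libraries of a group agreed within sampling noise (lowest chi-square per gene 3.06 over 146 pairs). Nothing in the labels pairs libraries, and replicate numbers follow accession order. Titles carry 1 code per library, but that each is a separate mouse is not stated, so p-values measure the spread between libraries. The codes start with E in APP/E4 and with D in APP/E3, except for an APP/E3 HFD male with F. What the letter stands for is not stated, and the APOE allele cannot be told apart from it.

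Genes named in the text are the C-type isoforms, the 10 with the largest APP/E4 against APP/E3 change, the member nearest 0 and the first and last of each cluster, those past the threshold or of smallest p in any other contrast, the 5 nearest neighbours on either side and, in other lists, genes past the threshold. The members, lists and tests were chosen with earlier results of these data known. Alternatives were size factors by the median ratio, filters on low counts, terms for the read class and title, removal of the libraries low in Csl, limma-voom, DESeq2 and each library left out; scaling Pcdhga5 by total counts was added after seeing the data. The authors' deposited tables of fold changes were not used here. No isoform sequence or coordinate is shown. The result of 1 marker gene is not reported here.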

Additional observations from a re-analysis of the deposited data

Results flagged for a closer look

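The values below lay apart from the rest of their group by Dixon's ratio at 95%; 26 of 232 group checks over 29 quantities did so, where chance alone gives about 1 in 20. All values are CPM.

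Replicate 2 of the APP/E3 ND males was low in 6 quantities: Pcdhac1 at 1.17 (the others of its group 3.49 to 4.61), Pcdhac2 at 18.5 (38.3 to 44.8), Pcdhgc3 at 40.0 (75.9 to 94.6), Pcdhb22 at 4.10 (6.32 to 7.28), the alpha sum at 42.9 (89.1 to 103) and the gamma sum at 298 (436 to 499). Other APP/E3 ND males were replicate 3 with Pcdha1 at 0.499 and Pcdhb1 at 8.31, and replicate 6 with Pcdhga9 at 13.9.

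Among APP/E3 HFD males, replicate 2 was low in Pcdhb3 at 5.65 and in the beta sum at 161 (186 to 199), replicate 3 high in Pcdhgc5 at 151, and replicate 4 high in Pcdhgb7 at 13.3 and Pcdhb11 at 6.20. Among APP/E3 females, ND replicate 1 had a low gamma sum of 387 (439 to 471), ND replicate 4 a high Pcdha10 of 7.88, ND replicate 5 a high Pcdha1 of 3.82 and HFD replicate 8 a high Pcdhga5 of 18.2.

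Among APP/E4 mice, ND male replicate 6 was low in Pcdhac2 at 24.2 (39.5 to 45.0), ND male replicate 1 low in Pcdhb10 at 4.59 and ND male replicate 3 high in Pcdhb1 at 0.619. HFD male replicate 3 was low in Pcdhga5 at 7.04 and Pcdhga7 at 14.5 (22.9 to 25.2). ND female replicate 3 was low in Pcdhga5 at 2.61 (7.47 to 10.7) and Pcdha1 at 0.746, and ND female replicate 6 low in Pcdha6 at 2.56.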

How the results depend on the processing

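For sex, 2 isoforms passed with the read-class term and 2 with the read-class and title terms, against 4 without; for genotype 20 passed with both terms, against 11. The causes were not tested. With single libraries left out, the counts ran from 3 to 6 for sex and from 10 to 15 for genotype, and stayed at 0 for diet and the interactions. The shares over all genes in those fits are not given here, so nothing is read from these counts. The sums differed between APP/E4 and APP/E3 by 4.24 CPM for alpha (2.25 to 5.61 with single libraries left out), 8.00 CPM for beta (6.77 to 10.1) and 17.9 CPM for gamma (11.9 to 22.4); the lowest value of each came without replicate 2 of the APP/E3 ND males. The fold changes of the 11 isoforms past the threshold for genotype and of the 4 for sex kept their direction under each alternative, but medians near 0 over the isoforms did not. The sex median was -0.03, and 0.115 with the read-class and title terms; under the same terms the median of the genotype by sex interaction went from 0.02 to -0.02 and that of diet in APP/E4 males from -0.03 to 0.03. Under DESeq2 13 isoforms passed for genotype, where 1217 of 15195 genes did, and 5 for sex, where 837 genes did. Under limma-voom 10 isoforms passed for genotype and 4 for sex, where 998 and 802 genes did. No paired analysis was possible because replicate numbers follow accession order and nothing in the labels pairs mice. Depth limits Pcdha8, Pcdhb1 and Pcdhgb8, which had under 3 counts in 2, 21 and 1 of the libraries.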
